A study of Mus musculus with 24 samples.

Results

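In the mouse genome (mm9), 4 short stretches hold runs of closely spaced peaks in lists from adult hepatocytes. The first spans bases 3000010 to 3038304 at the start of chromosome 9, and the second bases 7229710 to 7237012 of chromosome 10. The others are bases 3041272 to 3100001 of chromosome 11, again near the start, and bases 39980018 to 39985706 of chromosome 17. Every peak that overlapped one of these blocks by at least 1 bp was taken, which gave 388 of the 26332 peaks (1.47%) in 14 lists. The blocks were drawn around dense runs of hepatocyte peaks, so the positions, numbers and spacing of hepatocyte peaks inside them chose the members and are given as a description. Of the 388 peaks, 266 came from the 3 hepatocyte lists and 122 from 10 of the 11 lists of induced cells.

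The peaks come from chromatin immunoprecipitation followed by sequencing (ChIP-seq), 1 list per library, in cells of C57BL/6 mice. Hepatocytes were isolated from livers of 10-week-old adults, and 1 library was made with each of a Foxa1, a Foxa2 and a Foxa3 antibody, all with EGS and the number 4 in the title. Induced hepatocyte-like (iHep) cells were made from embryonic day 13.5 fibroblasts by infection with Hnf4alpha and Foxa1 (line 4a1), Foxa2 (line 4a2) or Foxa3 (line 4a3). Each line was profiled with the antibody to its own Foxa protein, in 2 EGS libraries and 1 library without EGS (non-EGS), and lines 4a2 and 4a3 also with a Flag antibody, with EGS. The labels neither spell out EGS nor state which protein carries the Flag tag. Most titles end in a code such as R170, which the labels do not explain. The 10 input libraries were not analysed here. No file holds read counts, so depth is unknown.

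Foxa1, Foxa2 and Foxa3 are related forkhead factors of the liver, known as pioneers because they can bind their sites within closed chromatin, and Hnf4alpha is a nuclear receptor of hepatocytes. Repeated DNA is a known difficulty for ChIP-seq, because reads from many unassembled copies can be placed on the few copies in the reference. Mouse chromosomes begin with a centromere made of satellite repeats, and the first assembled bases of chromosome 9 are known to contain major satellite, a tandem repeat packed as heterochromatin. The gene Sfi1, known for many extra copies in the mouse genome, lies near the centromeric end of chromosome 11, and a copy of the 45S ribosomal RNA transcription unit, which exists in large tandem arrays elsewhere, lies on chromosome 17. The RefSeq table of build GRCm38.p6 lists Sfi1 on chromosome 11 and Rn18s-rs5, an 18S ribosomal RNA pseudogene, on chromosome 17. Because that table is of another build, no gene or repeat was assigned to a block, and nothing is stated here of sequence at the block on chromosome 10. What share of the peaks comes from reads of repeats was not tested.

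The 4 blocks were not shared alike. The block on chromosome 9 held 224 peaks in 38.3 kb, 57.7% of all members, from only 4 lists. That on chromosome 11 held 79 peaks in 58.7 kb from 9 lists, that on chromosome 17 held 45 peaks in 5.69 kb from 9 lists, and that on chromosome 10 held 40 peaks in 7.30 kb from 6 lists. All 3 hepatocyte lists had peaks in the blocks on chromosomes 9, 10 and 17, whereas on chromosome 11 the hepatocyte Foxa1 list had 0, so that block was shared by the Foxa2 and Foxa3 lists alone among hepatocytes.

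By list, the blocks held 87 of 166 hepatocyte Foxa1 peaks (52.4%, exact 95% Clopper-Pearson interval 44.5 to 60.2), 73 of 244 Foxa2 peaks (29.9%, 24.2 to 36.1) and 106 of 1091 Foxa3 peaks (9.72%, 8.02 to 11.6). These intervals cover counting error only, and neighbouring peaks are not independent. In iHep cells 1 list stood far above the rest: the Foxa1 EGS list of line 4a1, replicate 2, had 92 of 542 peaks in the blocks (16.97%, 13.9 to 20.4). Replicate 1 of the same line, with the same antibody and EGS, had 1 of 940 (0.11%).

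The remaining EGS lists of Foxa antibodies held 3 of 957 and 10 of 1040 peaks for line 4a2 (0.31% and 0.96%), and 4 of 1246 and 0 of 46 for line 4a3. For 0 of 46 the exact interval reaches 7.71%, and 3 counts of 46 would be 6.52%. The 3 non-EGS lists were the longest and held 1 of 3431 peaks in line 4a1, 4 of 11408 in line 4a2 and 1 of 4317 in line 4a3. The Flag lists held 1 of 21 peaks in line 4a2 and 5 of 883 in line 4a3.

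**Figure D1:**
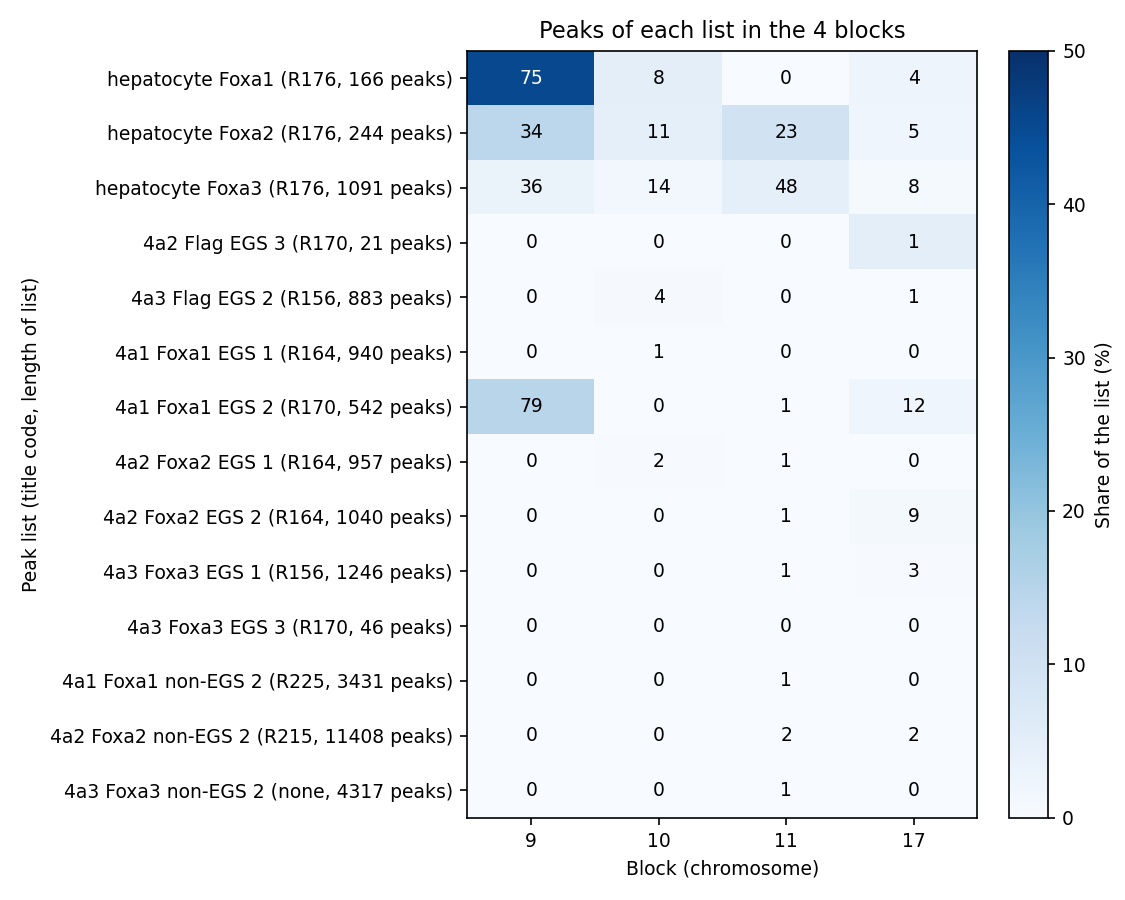
Number of peaks of each list (rows, with title code and list length) in each of the 4 blocks (columns), with the share of the list in percent as shading. The 3 hepatocyte lists (R176) and the Foxa1 EGS list of line 4a1, replicate 2 (R170), hold all peaks of the block on chromosome 9, while 9 lists reach each of the blocks on chromosomes 11 and 17.

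The blocks were chosen on the 3 hepatocyte lists, all made with EGS, so the choice was not independent of EGS. With that limit, the block share was compared between iHep libraries with and without EGS, and the p-values are a description. The share averaged 3.11% ± 6.80 (SD, n = 6) in EGS libraries and 0.029% ± 0.0059 (SD, n = 3) in non-EGS libraries, a difference of 3.08 percentage points (exact permutation test over 84 assignments, two-sided, p = 0.095, where 0.024 is the smallest possible). Of the 6 EGS lists, 5 lay above all 3 non-EGS lists, and the list of 46 peaks lay below them at 0. The difference was 0.65 points without the block on chromosome 9 (exact p = 0.095), 0.31 points without replicate 2 of line 4a1 (exact p = 0.14) and 3.71 points without the list of 46 peaks (exact p = 0.036). List length moved with EGS as well, at 46 to 1246 peaks in EGS lists and 3431 to 11408 in non-EGS lists, and its part in the difference was not tested. EGS cannot be told apart from the title code, since EGS and non-EGS lists of iHep cells never carry the same one.

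The code R176 covers the 3 hepatocyte lists, with 266 of the members, and no other list, so this code, the number 4 in the title and the cell type cannot be told apart. R170 covers the replicate 2 list of line 4a1 with 92 members, but also the Flag list of line 4a2 with 1 and the Foxa3 list of 46 peaks with 0. The 3 lists coded R164, 1 of them without the R, held 14 members, the 2 lists coded R156 held 9, and the lists R215, R225 and the one without a code held 4, 1 and 1. Among the 4 lists made with the Foxa1 antibody, 2 filled the block on chromosome 9, with 75 peaks in hepatocytes and 79 in replicate 2 of line 4a1, and the other 2 had no peak there.

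The block on chromosome 9 began at the first peaks of the chromosome and ended abruptly. No list had a peak on chromosome 9 before it, and the next peak after it lay 2294 kb away, in line 4a1 without EGS. Position 3100001, the end of the block on chromosome 11, served as a limit for peaks near a chromosome's start. Of 316 peaks starting at or before it, 307 lay on chromosomes 9 and 11 and 9 on 6 other chromosomes. The 307 include the 224 and 79 members of the blocks on chromosomes 9 and 11, so their number follows from the choice of blocks.

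Inside this block the hepatocyte Foxa1 peaks formed a nearly continuous array. The 75 peaks covered 68.3% of the block and ran from its first to its last base, at a median distance of 475 bp between midpoints of neighbours (quartiles 368 and 587 bp, range 279 to 1105 bp). The longest gap without a peak was 498 bp. Outside the blocks, neighbouring hepatocyte Foxa1 peaks on the same chromosome lay a median of 9942 kb apart.

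Replicate 2 of line 4a1 gave almost the same array from another cell type. Its 79 peaks covered 52.3% of the block, from 3000013 to 3038290, at a median midpoint distance of 473 bp (quartiles 353 and 585 bp). All 79 overlapped a hepatocyte Foxa1 peak, and 68 of the 75 hepatocyte Foxa1 peaks (90.7%) overlapped one of the 79. Hepatocyte Foxa1 peaks left a median gap of 136 bp, below the median width of the line 4a1 peaks (232 bp). An overlap of 1 bp was therefore likely at most placements in the block. Midpoints of overlapping peaks were a median of 11.5 bp apart. Outside the blocks 14 of 79 hepatocyte Foxa1 peaks (17.7%) overlapped 15 of the 450 peaks (3.33%) of the other list. Peaks are far apart there, so these shares are not a like reference for the block.

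Hepatocyte Foxa2 and Foxa3 peaks were fewer and narrower at these places. The Foxa2 list had 34 peaks over 13.4% of the block and the Foxa3 list 36 over 16.2%, at median midpoint distances of 785 and 821 bp. All 34 and all 36 overlapped a hepatocyte Foxa1 peak, and 26 of each overlapped each other (76.5% of the Foxa2 and 72.2% of the Foxa3 peaks). Their median widths, 137 and 158.5 bp, exceeded the median gap of 136 bp between Foxa1 peaks, so overlap with Foxa1 was likely at most placements. Outside the blocks, where peaks are sparser, 5 of 171 Foxa2 peaks (2.92%) and 8 of 985 Foxa3 peaks (0.81%) overlapped a hepatocyte Foxa1 peak. Both lists lacked peaks over the same stretch, from 3021686 to 3026343 for Foxa2 and from 3021691 to 3026368 for Foxa3, while the Foxa1 lists went on through it. Foxa2 and Foxa3 peaks of this block had low scores for their lists (median percentiles 10.0 and 6.51). Without read counts, a lack of listed peaks is not shown to be a lack of signal.

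**Figure D2:**
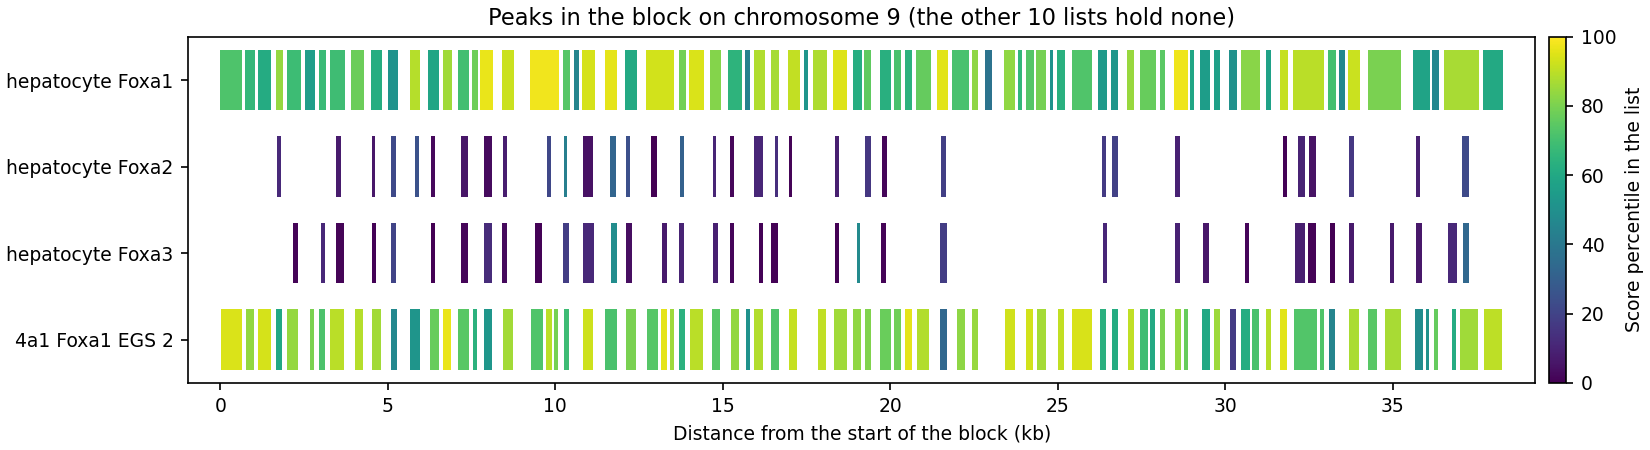
Peaks of the 4 lists that reach the block on chromosome 9, drawn to scale along the distance from its start in kb and coloured by the percentile of the peak's score within its own list. The 75 hepatocyte Foxa1 peaks and 79 peaks of line 4a1 fill the block with high percentiles, and the 34 Foxa2 and 36 Foxa3 peaks of hepatocytes are sparse, of low percentile and absent from a stretch past the middle.

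Merged over lists, the block on chromosome 9 held 75 regions, and each held exactly 1 hepatocyte Foxa1 peak. Of these, 27 were found in all 4 lists, 13 in 3, 28 in both Foxa1 lists alone and 7 in the hepatocyte Foxa1 list alone. The leading regions by number of lists and mean percentile ran from 3011484 to 3011865, 3036557 to 3037597, 3009262 to 3010109, 3010226 to 3010452 and 3033671 to 3034048, each in all 4 lists. At 9 regions replicate 2 of line 4a1 had 2 or 3 peaks where hepatocyte Foxa1 had 1 wider one. The 40 regions with a hepatocyte Foxa2 or Foxa3 peak had a median width of 343.5 bp, and the 35 without one 234 bp. The hepatocyte Foxa1 peaks had median percentiles of 80.7 at the 40 and 66.6 at the 35, whereas the highest peaks of line 4a1 had 76.9 at the 40 and 88.8 at the 28 of the 35 that it reached.

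The rank of these peaks within their lists went opposite ways. A score is the authors' own value for a peak, and the labels do not state its scale, so only its percentile within a list was used. In the hepatocyte Foxa1 list the 75 peaks had a median percentile of 72.6, and 13 of them (17.3%) were in the top decile by score, which holds 10.2% of the list. Ranks 1 to 3 of that list lay outside the blocks and the best chromosome 9 peak, 3009262 to 3010109, ranked 4. In replicate 2 of line 4a1 the 79 peaks had a median percentile of 80.4, with 15 (19.0%) in the top decile (9.96% of the list), the best of them at rank 19. None of the 75 and none of the 79 was in the bottom decile of its list (10.8% and 10.1% of the lists).

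Hepatocyte Foxa2 and Foxa3 peaks of the same block ranked near the end of their lists. The Foxa2 median was the 10.0 percentile, 17 of 34 peaks (50%) were in the bottom decile (9.84% of the list), and the best, 3010255 to 3010360, ranked 140 of 244. The Foxa3 median was the 6.51 percentile, 25 of 36 peaks (69.4%) were in the bottom decile (9.81% of the list), and the best, 3011660 to 3011844, ranked 561 of 1091. Neither list had a chromosome 9 block peak in its top decile (9.84% and 9.99% of the lists).

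Peak by peak, scores agreed to different degrees between lists. Over the 79 overlapping pairs of hepatocyte Foxa1 and line 4a1 peaks, Spearman's rho of the percentiles was 0.17, and it was 0.56 over the 26 pairs of hepatocyte Foxa2 and Foxa3 peaks. For line 4a1 it was -0.42 with hepatocyte Foxa2 (34 pairs) and -0.25 with hepatocyte Foxa3 (36 pairs). For hepatocyte Foxa1 it was -0.10 with hepatocyte Foxa2 (34 pairs) and 0.12 with hepatocyte Foxa3 (36 pairs). These are descriptions over neighbouring peaks of single libraries.

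The Foxa1 lists also had the wider peaks here. Block peaks on chromosome 9 had a median width of 306 bp in the hepatocyte Foxa1 list, against 131 bp for the list's peaks outside the blocks, and reached 1041 bp. In replicate 2 of line 4a1 the medians were 232 and 138 bp. They were 137 and 115 bp for hepatocyte Foxa2, and 158.5 and 135 bp for hepatocyte Foxa3.

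**Figure D3:**
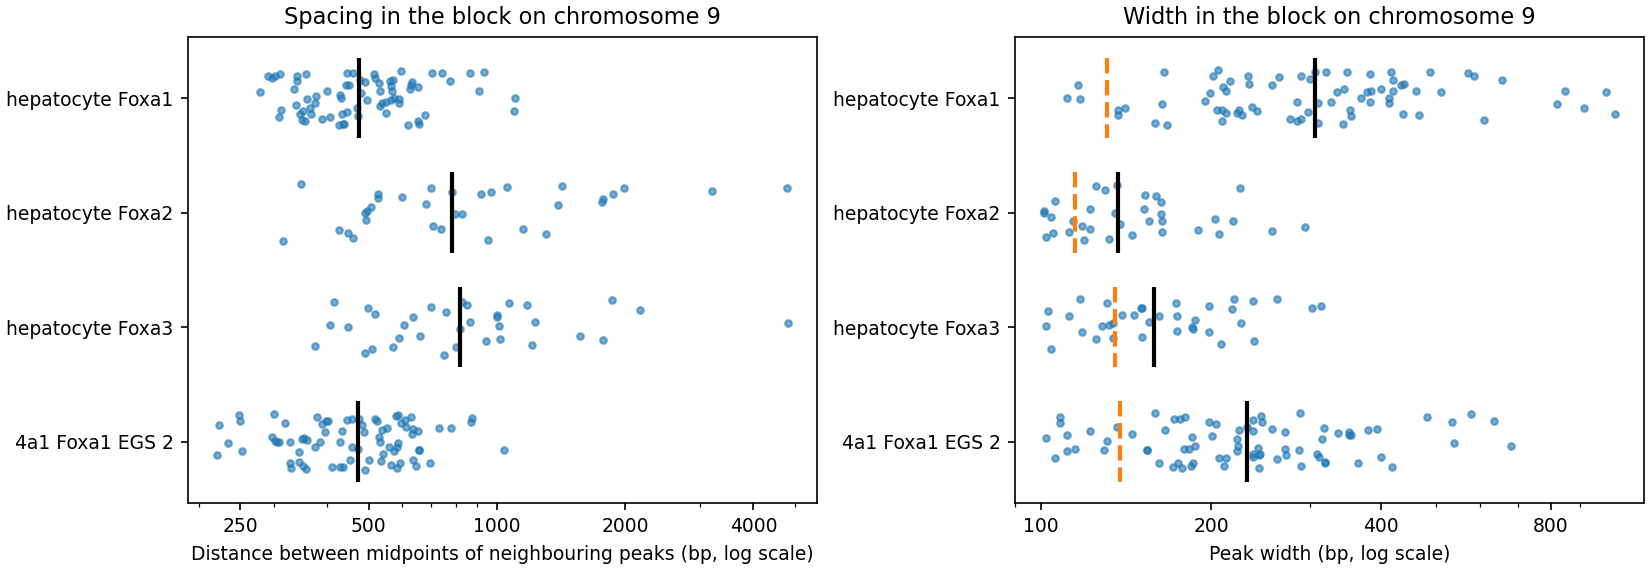
Each point is a distance between midpoints of neighbouring peaks (left) or a peak width (right) in the block on chromosome 9, in bp on a log scale, by list. Black bars are medians and dashed orange bars the median width of the list's peaks outside the blocks. Spacing has medians of 475 and 473 bp in the Foxa1 lists and 785 and 821 bp in the hepatocyte Foxa2 and Foxa3 lists, and the Foxa1 lists hold the widest peaks.

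The block on chromosome 11 held a different pattern, without Foxa1 peaks in hepatocytes. The hepatocyte Foxa3 list had 48 peaks there and the Foxa2 list 23. As a share of the list the order was the other way, at 4.40% for Foxa3 and 9.43% for Foxa2. The peaks were narrow (medians 131.5 bp for Foxa3 and 134 bp for Foxa2, against 135 and 115 bp outside the blocks). They covered 12.9% and 7.18% of the block at median midpoint distances of 830 and 1580 bp. Foxa3 peaks on chromosome 11 had a median percentile of 66.9, with 7 of 48 (14.6%) in the top decile (9.99% of the list) and 6 (12.5%) in the bottom decile (9.81%). Foxa2 peaks there had a median of 40.4, with 1 of 23 in the top and 2 in the bottom decile (9.84% of the list each).

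Outside the blocks, neighbouring peaks of the hepatocyte Foxa3 list were also often close, at a median of 1.85 kb, whereas those of the Foxa2 list lay a median of 7859 kb apart. Of the 23 Foxa2 peaks, 18 (78.3%) overlapped 21 of the 48 Foxa3 peaks (43.8%). Spearman's rho of their percentiles was 0.55 over 21 pairs, from libraries that share a title code. Outside the blocks 14 of 171 Foxa2 peaks (8.19%) overlapped 14 of 985 Foxa3 peaks (1.42%). The region from 3070529 to 3070635 ranked high in both lists (12 of 244 for Foxa2, 42 of 1091 for Foxa3). Those from 3088259 to 3088413, 3097534 to 3097794 and 3088698 to 3088813 followed by mean percentile. The best Foxa3 peak of the block, 3088259 to 3088413, ranked 32.

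Hepatocyte peaks also lay nearer the chromosome's start, outside the block. One place between 3000365 and 3000545 held a peak in each of the 3 hepatocyte lists, at rank 165 of 166 for Foxa1, 207 of 244 for Foxa2 and 1085 of 1091 for Foxa3. The nearest peak before the block was a Foxa2 peak 38.4 kb away, and the nearest one after it lay 66.5 kb away in line 4a3 without EGS.

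Inside the same block the iHep lists had a single site of their own. The region from 3061188 to 3061787 held 1 peak in each of 7 of the 9 iHep Foxa lists and in no hepatocyte or Flag list. The 2 lists without it were replicate 1 EGS of line 4a1 and the list of 46 peaks. All 7 peaks covered the bases from 3061488 to 3061596, and their midpoints lay within 69.5 bp.

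The site lay at percentiles of 74.7 to 95.3 in 6 of the 7 lists and of 20.0 in line 4a1 without EGS. It ranked 40 of 542 in replicate 2 EGS of line 4a1, 99 of 1040 and 217 of 957 in replicates 2 and 1 EGS of line 4a2, and 136 of 1246 in replicate 1 EGS of line 4a3. Among non-EGS lists it ranked 2745 of 3431 in line 4a1, 540 of 11408 in line 4a2 and 1091 of 4317 in line 4a3. The nearest hepatocyte peaks ended 4994 bp before it and began 1055 bp after it. Apart from it, iHep lists had 1 peak in this block, from 3042658 to 3043035 in the non-EGS list of line 4a2, at rank 11352. None of these 8 iHep peaks, at 2 places, overlapped a hepatocyte peak. Outside the blocks, 42 of 1030 peaks (4.08%) of replicate 2 EGS of line 4a2 overlapped a hepatocyte Foxa2 peak. For replicate 1 EGS of line 4a3, 134 of 1242 peaks (10.8%) overlapped a hepatocyte Foxa3 peak. With such low shares, 2 places are too few to read anything into their lack of overlap.

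On chromosome 10 the 3 hepatocyte lists had 8 Foxa1, 11 Foxa2 and 14 Foxa3 peaks in 7.30 kb, at median midpoint distances of 509, 393 and 466 bp. Their ranks were middling to low, with median percentiles of 27.7, 30.9 and 50.1. All 8 Foxa1 and all 11 Foxa2 peaks overlapped a Foxa3 peak, and the 14 Foxa3 peaks overlapped Foxa1 in 8 cases and Foxa2 in 10. Foxa3 peaks covered 43.2% of this block, so an overlap of 1 bp was likely at most placements. Outside the blocks, where peaks are sparser, 8 of 79 Foxa1 peaks and 14 of 171 Foxa2 peaks overlapped a Foxa3 peak. Whether the overlap in the block exceeds that of random placement was not tested. The best Foxa1 peak, 7229719 to 7229993, ranked 94 of 166, the best Foxa2 peak, 7232628 to 7232747, ranked 39 of 244, and the best Foxa3 peak, 7233593 to 7233836, ranked 69 of 1091.

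The Flag list of line 4a3 covered most of this block with 4 broad peaks. They spanned 62.6% of it, and that from 7232502 to 7235311 was 2810 bp wide and ranked 6 of 883. Of the hepatocyte peaks here, 7 of 8 for Foxa1, 9 of 11 for Foxa2 and 11 of 14 for Foxa3 overlapped a Flag peak. With 62.6% of the block under Flag peaks, such overlap was likely at most placements. Outside the blocks, where peaks are sparser, 12 of 79 Foxa1, 24 of 171 Foxa2 and 15 of 985 Foxa3 peaks overlapped a Flag peak. Whether the overlap in the block exceeds that of random placement was not tested. Foxa lists of iHep cells had only 3 small peaks in it, 1 in replicate 1 EGS of line 4a1 (rank 873 of 940) and 2 in replicate 1 EGS of line 4a2 (ranks 802 and 943 of 957).

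Of the leading merged regions on chromosome 10, the first 4 had the bounds of the Flag peaks. The region from 7232502 to 7235311 was found in 6 lists, that from 7236107 to 7236670 in 4, and those from 7229376 to 7230608, 7236716 to 7237169 and 7231865 to 7232065 in 3 lists each. Without that Flag list, a division made after the values were seen, there were 14 regions, of which 6 held a peak in each of the 3 hepatocyte lists. The nearest peaks outside lay 456 kb before and 144 kb after the block, in non-EGS lists.

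The block on chromosome 17 was reached by 9 lists, as on chromosome 11, but here some hepatocyte and iHep peaks overlapped. Of its 45 peaks, 17 came from hepatocytes and 28 from 6 iHep lists. In line 4a3 the Flag antibody gave a single peak of 5953 bp there, from 39979833 to 39985785, which extended beyond both ends of the block and had the highest score of all 883 Flag peaks. Its width was 25.5 times the list's median outside the blocks.

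All other peaks of the block lay under that Flag peak. The hepatocyte lists had 4 Foxa1, 5 Foxa2 and 8 Foxa3 peaks. Replicate 2 EGS of line 4a1 had 12 peaks, replicate 2 EGS of line 4a2 had 9, replicate 1 EGS of line 4a3 had 3 and the non-EGS list of line 4a2 had 2. Replicate 1 EGS of lines 4a1 and 4a2 had no peak here. The nearest peaks outside the block were 2818 kb before and 958 kb after it.

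Without that Flag peak the remaining 44 peaks formed 6 regions, again divided after the values were seen, of which 4 held both hepatocyte and iHep peaks and 2 a hepatocyte peak alone. The region from 39980921 to 39983275 held peaks of 7 lists, and was joined by 1 hepatocyte Foxa1 peak of 2166 bp (39981105 to 39983270, rank 42 of 166). The region from 39980018 to 39980464, at the start of the block, held peaks of 6 lists, and that from 39984823 to 39985706, at its end, of 5. The region at the start held the best-ranked block peaks on chromosome 17 of hepatocyte Foxa2 (39980018 to 39980138, rank 18 of 244) and Foxa3 (39980019 to 39980140, rank 11 of 1091). The same place held the only block peak of the Flag list of line 4a2, at rank 19 of 21, and the best block peaks on this chromosome of replicate 2 EGS of line 4a2 (rank 268 of 1040) and replicate 1 EGS of line 4a3 (rank 285 of 1246).

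**Figure D4:**
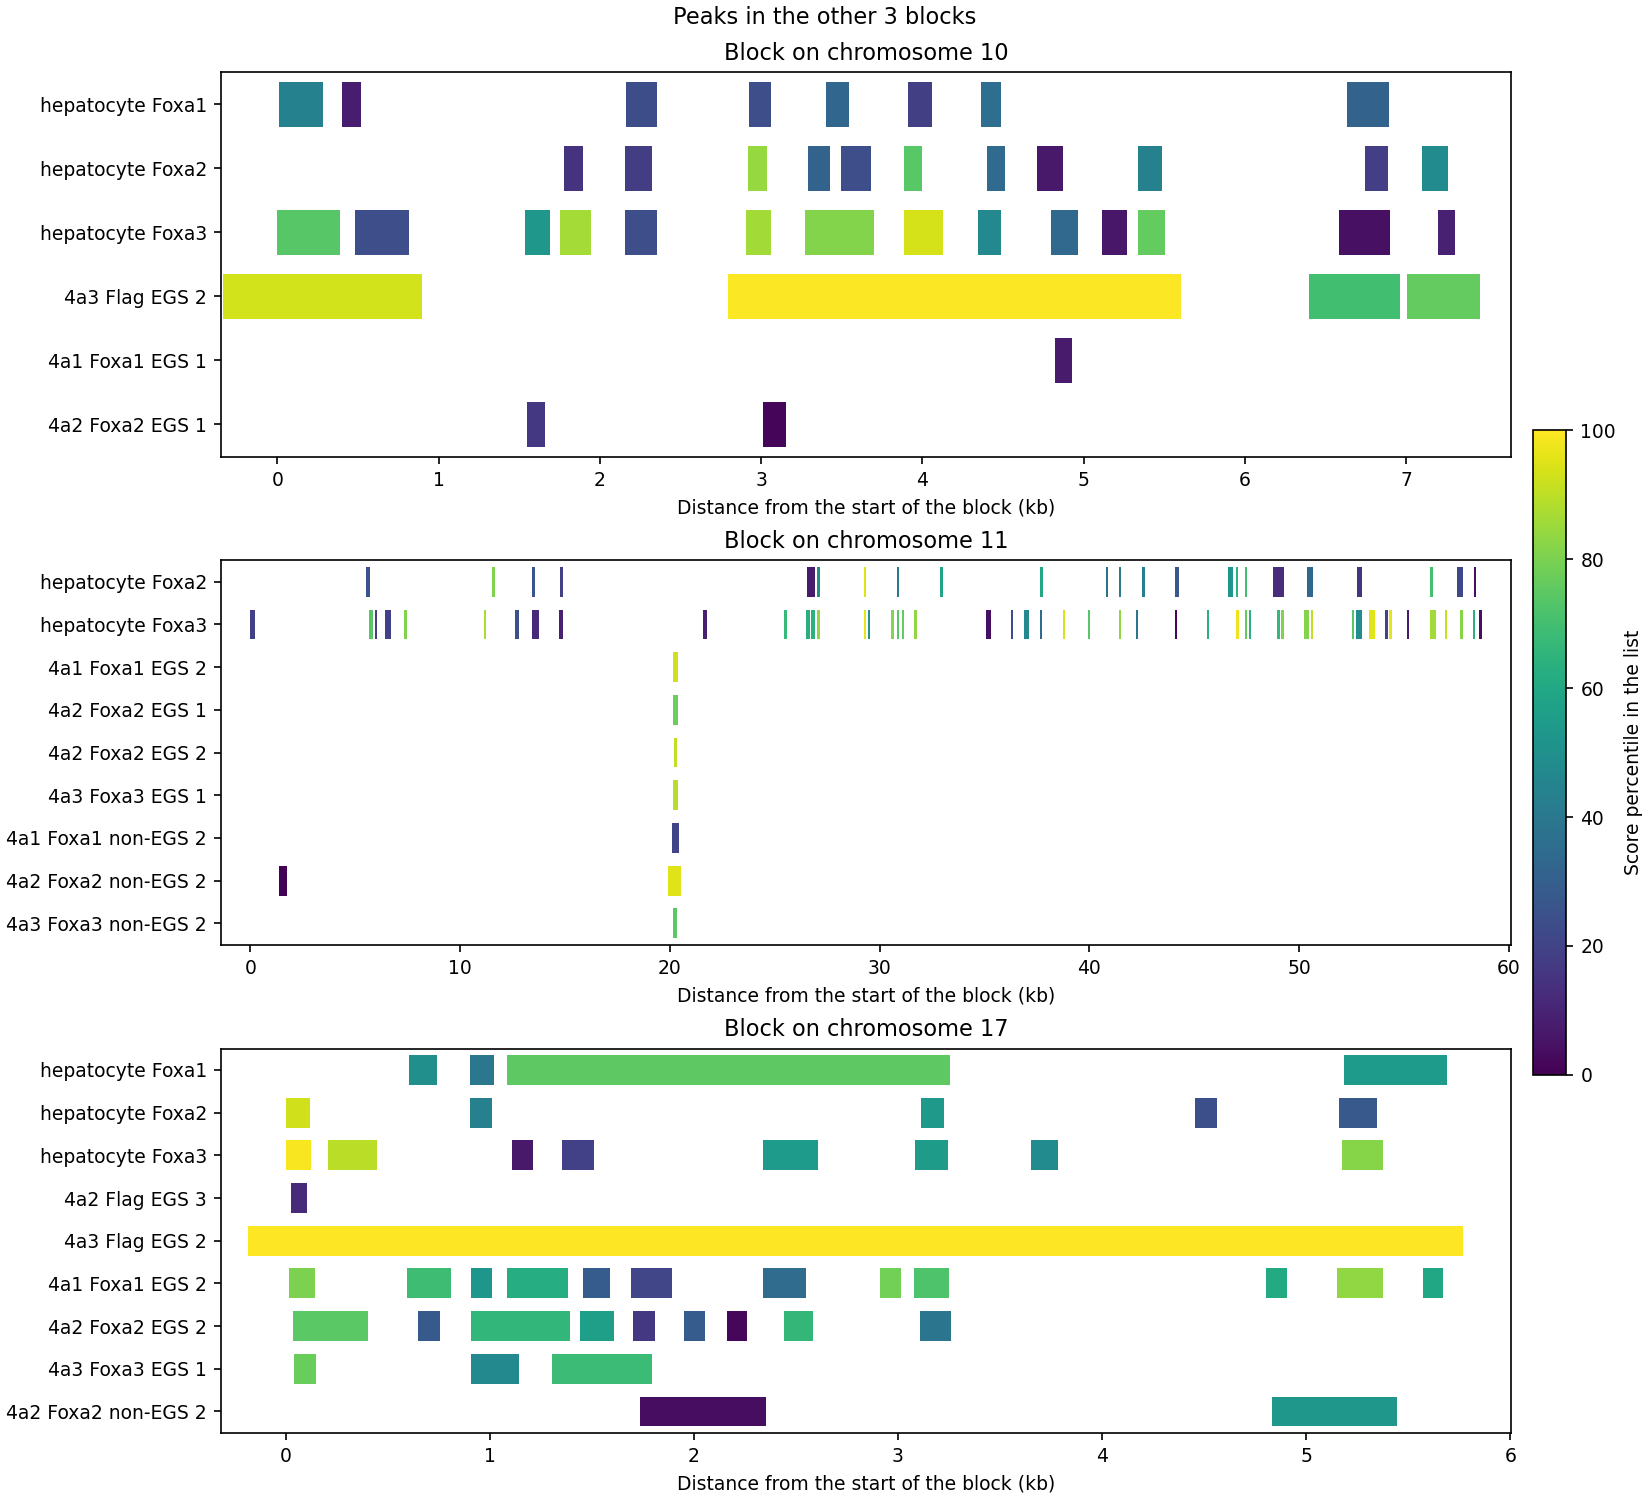
Peaks in the blocks on chromosomes 10, 11 and 17, drawn to scale along the distance from the start of each block in kb, 1 row for each list with a peak there, coloured by score percentile within the list. The Flag list of line 4a3 has 4 broad peaks on chromosome 10 and 1 peak of 5953 bp on chromosome 17, and on chromosome 11 the 7 iHep peaks stand in line at 1 place where hepatocyte lists have none.

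Over all 4 blocks together, the median width of block peaks was above that of the other peaks in each of the 6 lists with at least 5 block peaks. The median widths, block peaks first, were 289 and 131 bp for hepatocyte Foxa1, 135 and 115 bp for hepatocyte Foxa2, and 153.5 and 135 bp for hepatocyte Foxa3. In iHep cells they were 222 and 138 bp for replicate 2 EGS of line 4a1, 141 and 135 bp for replicate 2 EGS of line 4a2, and 1233 and 233 bp for Flag peaks of line 4a3. The mean log2 ratio was 0.79 ± 0.89 (SD, n = 6 lists), given as a description, since dense runs in 3 of the 6 lists drew the blocks. Without those 3 hepatocyte lists it was 1.05 (two-sided exact sign-flip permutation test, p = 0.25, as low as 3 lists can go). With all 13 lists that hold a block peak it was 0.36 (exact p = 0.087), and block peaks were narrower in 3 of the added lists, at 0.73, 0.78 and 0.83 times the other peaks in replicate 1 EGS of line 4a1, line 4a1 without EGS and line 4a3 without EGS. Each of these 3 lists holds only 1 block peak. The mean log2 ratio was 0.43 without the block on chromosome 9 (exact p = 0.41) and 0.46 without the Flag list (exact p = 0.063, the smallest that 5 lists allow). The 3 hepatocyte lists share a number and a code, so the 6 values are not fully independent. The sets of 13 and 5 lists, and the set without the block on chromosome 9, still hold the 3 hepatocyte lists. Their p-values are therefore a description and not a test.

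Rank did not move one way. The median percentile of block peaks minus that of the other peaks was 43.4 points in hepatocyte Foxa1, -39.3 in hepatocyte Foxa2 and -21.7 in hepatocyte Foxa3. It was 38.9 in replicate 2 EGS of line 4a1, -1.39 in replicate 2 EGS of line 4a2 and 43.3 among Flag peaks of line 4a3. The mean difference was 10.5 ± 36.4 points (SD, n = 6 lists, exact sign-flip permutation test, two-sided, p = 0.50), with 3 lists above 0 and 3 below. Dense runs in 3 of the 6 lists drew the blocks, so this p-value is a description. Without those 3 hepatocyte lists the mean was 27.0 points (same test, 3 lists, exact p = 0.50). With all 13 lists that hold a block peak the mean was -4.74 points (exact p = 0.62), so the direction turned. The lists added for this hold only 1 to 4 block peaks each, and each counts as much as the longer ones.

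**Figure D5:**
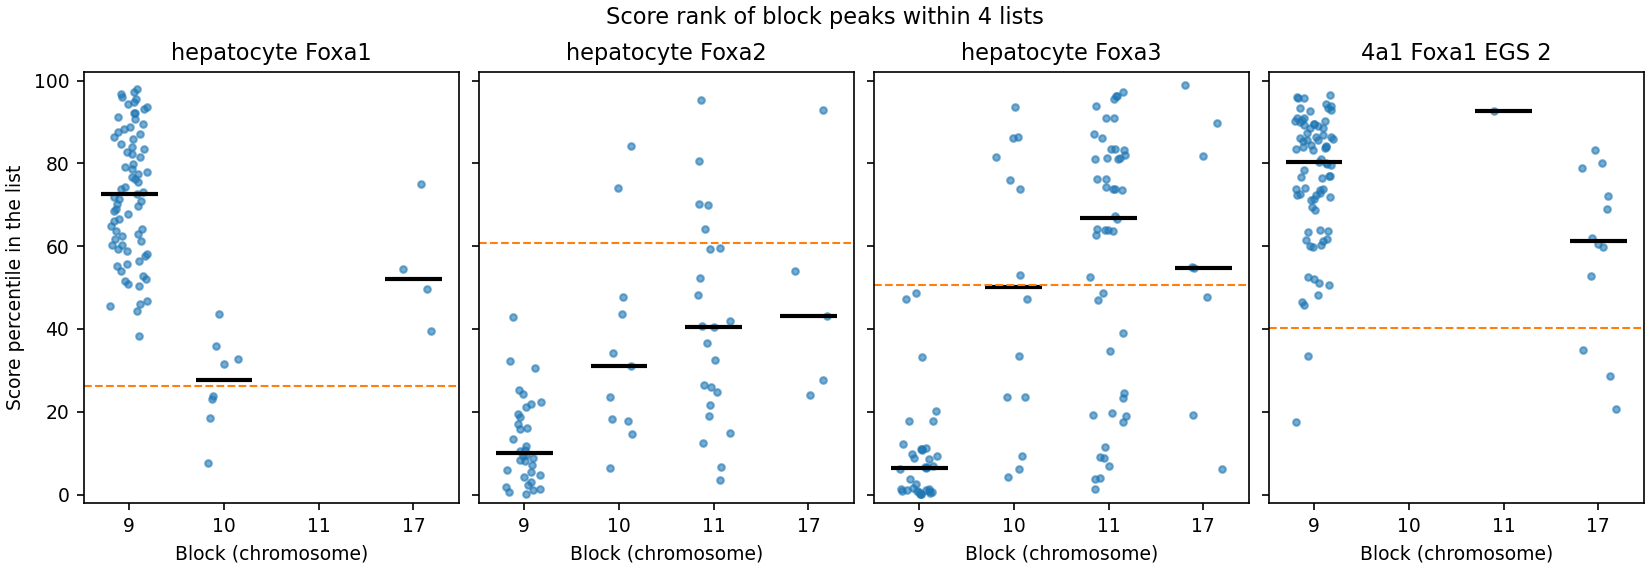
Score percentile within the list of each block peak (points) in the 3 hepatocyte lists and in the Foxa1 EGS list of line 4a1, replicate 2, by block. Black bars are medians and dashed orange lines the median of the list's peaks outside the blocks. On chromosome 9 the medians are 72.6 and 80.4 in the Foxa1 lists and 10.0 and 6.51 in the hepatocyte Foxa2 and Foxa3 lists.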

How the data were processed

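Each of the 14 files is the deposited peak list of 1 library, with a chromosome, start, end, name and score per peak and no header. The build mm9 and the tools bedtools 2.16.2, MACS2 2.1.0 and BWA 0.6.2 are named per the submitters' processing notes. Their roles and settings, how reads with several placements were treated and whether inputs were used are unknown here. The score of each peak is the authors' own value as deposited, on a scale not stated. The Flag list of line 4a3 has a lowest score of 50.0, against 5.00 to 5.87 in the other lists, so scores served only as percentiles within a list (mid-ranks). Peaks overlapping a block by 1 bp were members; starts are 1-based. Merged regions are unions of overlapping members. The 5 regions of each block in most lists, ties by mean percentile, and the best peak per list could be named. The blocks, lists and tests were chosen with earlier results of these data known. Libraries with different replicate numbers served as replicates; the labels do not say that they are separate inductions, so p-values reflect only the spread among these libraries, possibly technical. Exact permutation tests ran in scipy 1.17.1 and numpy 2.4.6 under Python 3.11.15, with pandas 2.3.3 for tables and matplotlib 3.10.9 for figures, and membership was tested on simulated peaks. Alternatives covered the membership rule, covered bases, higher-scoring peaks, single blocks and left-out libraries. Depth is unknown, and no mm9 sequence was used here.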

Additional observations from a re-analysis of the deposited data

Results flagged for a closer look

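Among the 6 EGS libraries of iHep cells made with Foxa antibodies, 1 lay far from the rest in 2 of 5 shares examined. Replicate 2 of line 4a1 had 16.97% of its list in the 4 blocks, against 0.96% in the next library, and 14.6% in the block on chromosome 9, against 0% in each of the other 5. For the 4 blocks the gap made up 0.94 of the range of the group, above Dixon's 95% critical value of 0.625. For chromosome 9 it made up 1, as any value above 0 would where all others are 0, and the share in the 4 blocks contains this one, so both describe the same peaks. For values from a normal distribution, chance flags about 1 in 20 such groups. These shares are percentages, most of them close to 0, so that rate need not hold here.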

How the results depend on the processing

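The number of block peaks was 383 without the Flag list of line 4a3 and 296 without replicate 2 EGS of line 4a1, both alternatives added after the data were seen. The share of each of the 14 lists was the same with peak midpoints required inside the blocks and with blocks widened by 10 kb. By covered bases they were 67.6% for hepatocyte Foxa1, 23.9% for replicate 2 EGS of line 4a1 and 4.11% for the Flag list of line 4a3. With only the 50% of peaks with the highest scores, shares were 86.7%, 9.52% and 7.69% for hepatocyte Foxa1, Foxa2 and Foxa3, 31.3% for replicate 2 EGS of line 4a1, and 0% for replicate 1 EGS and non-EGS of that line and for the Flag list of line 4a2. The difference between EGS and non-EGS shares stayed above 0 in all 18 alternatives and ranged from 0.31 to 3.71 points when each library was left out. It passed the threshold only without the list of 46 peaks (exact p = 0.036). The blocks were drawn on EGS lists of hepatocytes, so these p-values too are a description. With the replicate block, the 2 pairs of EGS and non-EGS libraries of the same line and replicate number differed by 8.94 points (exact p = 0.50, the smallest possible), where the labels do not say that the numbers mark shared material. The mean log2 width ratio ranged from 0.46 to 0.93 when each list was left out (exact p = 0.063, the smallest 5 lists allow). It was 0.36 with all 13 lists that hold a block peak (exact p = 0.087), 1.05 without hepatocyte lists (3 lists, exact p = 0.25, the smallest possible), 0.46 without Flag lists, and 0.43, 0.46 and 0.58 without the blocks on chromosomes 9, 10 and 17 (exact p = 0.41, 0.063 and 0.13, the last 2 with 5 and 4 lists). The difference in score percentile was -4.74 points with 13 lists (exact p = 0.62), so its direction turned. The lists added for this hold 1 to 4 block peaks each. The cause of the turn was not tested. For width and percentile alike, p-values from sets that hold hepatocyte lists are a description, since those lists drew the blocks.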

Other observations

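Outside the blocks, the hepatocyte Foxa1 list and replicate 2 EGS of line 4a1 shared 14 places, picked out after the values were seen. Of these, 4 lay close together on chromosome 2, at 98502395 to 98503133, 98503859 to 98504226, 98505081 to 98505396 and 98506396 to 98507483, with ranks of 17, 55, 78 and 25 in the hepatocyte Foxa1 list and 35, 116, 68 and 33 in the line 4a1 list. The places starting at 98502395 and 98506396 were also in the Flag list of line 4a3, and that starting at 98503859 in the hepatocyte Foxa3 list. Another shared place, on chromosome 12 from 3109854 to 3110126, ranked 32 in both lists and was in no other list. The place on chromosome 9 from 35112799 to 35113177 ranked 32 and 38, and was also in the Flag list of line 4a3. Spacing under 1 kb outside the blocks was common in the hepatocyte Foxa3 list, where it held for 398 of 964 neighbouring pairs (41.3%), and rare in the hepatocyte Foxa1 and Foxa2 lists, with 2 of 60 (3.33%) and 2 of 151 (1.32%).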
